A study of Mus musculus with 30 samples.

Results

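The genes described here are 31 components and targets of the p53 pathway: the transcription factor gene Trp53, its inhibitors, and genes known to be transcribed under its control. They were chosen by name from textbook knowledge of the pathway, and all 31 were found once each among the 50686 genes that every library lists. Of these, 26 passed the filter on low counts in the line HPC7 and 29 in the line HPCLSK. Eda2r and Plk2 passed in neither, and Perp, Fas and Phlda3 passed only through HPCLSK.

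The p53 protein is held at a low level by MDM2, a ubiquitin ligase, and by its relative MDM4. DNA damage, oncogene activity and ribosomal stress stabilise it through kinases such as ATM and through ARF, a product of Cdkn2a. It then drives genes that stop the cell cycle, repair DNA, limit oxidative damage or start apoptosis, and it drives Mdm2 itself, which closes a feedback loop. In blood stem and progenitor cells the pathway is known for restraining self-renewal and for removing cells after irradiation.

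The RNA is from HPC7 (strain label 129SV) and HPCLSK (C57BL/6N), mouse lines grown as stand-ins for blood stem and progenitor cells. For HPC7 the labels conflict, since those of its chromatin libraries give C57BL/6N. Each line carried a retroviral vector for 1 of 3 constructs: dsRed alone, called empty vector below; STAT3, a transcription factor activated by cytokine receptors; or STAT3Y640F, called Y640F below, a form with a change in the SH2 domain known to activate it. Cells grew in medium with stem cell factor and received no other treatment, and both lines are known to be kept growing by the transcription factor LHX2, a background that the control cells share. The series text calls the 3 libraries of a group technical replicates (6 groups, 18 libraries), so errors and p-values measure the spread between libraries and not between separate transductions.

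Library totals ran from 9537258 to 38556669 counts. Stat3 RNA stood at 216 to 236 CPM (the count scaled to library depth, with TMM factors over the 18 libraries) with empty vector in HPC7, 976 to 1007 with STAT3 and 654 to 693 with Y640F. In HPCLSK the ranges were 341 to 365, 556 to 640.5 and 1860 to 1949 CPM. All 12 stem and progenitor markers had counts in every group, with a summed level of 3190 to 3388 CPM in HPC7 and 4572 to 4963 CPM in HPCLSK with empty vector. Granulocyte markers summed to 7959 to 12550 CPM in HPCLSK and 332 to 669.8 CPM in HPC7. B-lymphoid markers summed to at most 0.578 CPM in both empty vector groups. The median distance of a library from the other 2 of its group, on a log2 scale, was 0.0907 for HPCLSK empty vector replicate 1 and 0.129 for HPCLSK Y640F replicate 1, against 0.0619 to 0.0862 for the other 7 HPCLSK libraries. These 2 libraries are the ones said below to stand apart, empty vector replicate 1 by a narrow margin. Values without them are given beside several results that they move. In HPC7 the distance was 0.108 for empty vector replicate 1, 0.0911 for replicate 2 and 0.037 to 0.063 for the rest. Those 2 lie as far out as HPCLSK empty vector replicate 1 but were only left out 1 at a time, so the choice is uneven between the lines. The file headers name 1 sequencing run for all HPC7 libraries and another for all HPCLSK libraries, so line, strain and run cannot be told apart.

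Promoter sequence bears on these genes because p53 binds a recurring half-site, usually as 2 half-sites side by side. RefSeq promoters (GRCm38.p6, 250 bases before to 50 after a transcript start, both strands searched) were at hand for 24 of the 31 members. An exact match to the p53 consensus half-site lay in 11 of the 24 (Trp53, Mdm2, Cdkn1a, Ccng1, Sesn1, Aen, Ei24, Polk, Rps27l, Gtse1 and Ppm1d), against 9.55% of 27025 genes with such a promoter. The motif CATGNNNNNNCATG, the cores of 2 half-sites with no spacer, lay in Cdkn1a alone among the members and in 0.833% of all genes. It overlaps the second Cdkn1a half-site. TTCNNNGAA, the motif known for STAT proteins, lay in 2 of the 24 members, Fas and Polk, against 9.55% of all genes. Members were listed because p53 is known to bind near many of them, so the excess of half-sites is no independent observation.

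Bases 250 to 31 before the start are shown for 3 members at the centre of the pathway, with half-sites in capitals, and for Fas, the member with the largest response to Y640F in HPCLSK, with TTCNNNGAA in capitals. The 4 genes were chosen after values and matches had been seen. The windows are on GRCm38.p6. Cdkn1a lies at chr17:29090729-29090948, plus strand, Mdm2 at chr10:117710789-117711008, minus strand, Ccng1 at chr11:40755317-40755536, minus strand, and Fas at chr19:34290409-34290628, plus strand, all read 5′ to 3′ along the gene.
Cdkn1a: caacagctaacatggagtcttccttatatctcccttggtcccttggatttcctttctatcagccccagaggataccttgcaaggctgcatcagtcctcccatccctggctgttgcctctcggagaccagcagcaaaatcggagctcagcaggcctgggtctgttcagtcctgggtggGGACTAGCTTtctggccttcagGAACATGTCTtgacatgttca
Mdm2: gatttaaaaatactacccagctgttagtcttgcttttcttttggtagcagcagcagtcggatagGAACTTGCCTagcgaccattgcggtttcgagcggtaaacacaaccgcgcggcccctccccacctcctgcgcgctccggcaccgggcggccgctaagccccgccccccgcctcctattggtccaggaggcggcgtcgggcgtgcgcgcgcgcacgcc
Ccng1: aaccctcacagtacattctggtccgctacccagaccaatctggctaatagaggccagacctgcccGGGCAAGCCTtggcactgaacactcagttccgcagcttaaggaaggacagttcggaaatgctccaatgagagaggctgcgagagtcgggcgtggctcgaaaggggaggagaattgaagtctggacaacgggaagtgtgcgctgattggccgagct
Fas: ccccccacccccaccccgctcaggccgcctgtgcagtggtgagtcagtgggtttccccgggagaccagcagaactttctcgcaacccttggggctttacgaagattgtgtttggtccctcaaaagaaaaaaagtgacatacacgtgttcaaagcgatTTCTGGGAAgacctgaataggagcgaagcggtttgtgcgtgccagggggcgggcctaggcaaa
A match in these windows is a run of letters and not a measured site, and sites further away, such as those in first introns, were not searched.

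**Figure D1:**
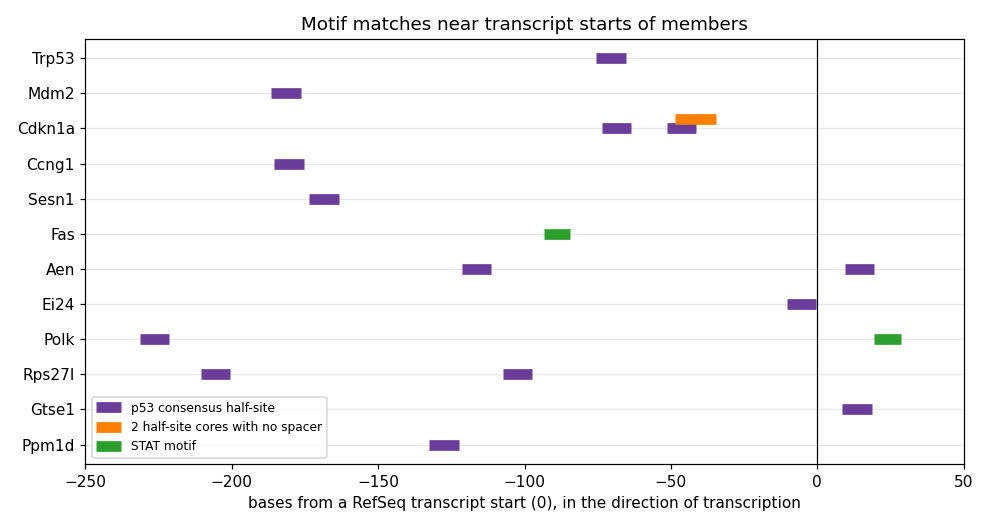
Motif matches in the 12 members that hold any, by position in bases from a RefSeq transcript start. Purple bars are p53 consensus half-sites, the orange bar in Cdkn1a is the pair of half-site cores and green bars are the STAT motif. Cdkn1a and Rps27l hold 2 half-sites each; the 2 bars of Aen are 1 half-site seen from 2 transcript starts.

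The lines were first compared with empty vector. Trp53 RNA was near equal in HPC7 and HPCLSK. Perp, Zmat3, Trp53inp1 and Phlda3, picked by their values, stood at 3.32 CPM or less in HPC7 and at 18.9 CPM or more in HPCLSK. A member was called when edgeR's quasi-likelihood test gave an adjusted p under 0.05 and the fold was at least 2 (1 on the log2 scale). Of 29 members tested, 9 were called higher in HPCLSK, where 22.8% of all tested genes were, 0 were called lower, against 13.6% of all genes, and 20 were not called. With the adjusted p alone, 18 were higher and 6 lower, against 41.6% and 39.0% of all genes. The median log2 difference was 0.31 over the members, also with Perp and Fas at the bounds given below, and 0.04 over all tested genes. Perp, Fas and Phlda3 passed the filter only because of HPCLSK and so had to differ, and the count of 9 is a description. Granulocyte markers were higher in HPCLSK for 11 of 11 genes tested, monocyte and macrophage markers for 7 of 7 (summed 38.2 to 41.5 CPM in HPC7 and 1028 to 1248 in HPCLSK) and mast cell markers for 4 of 5 (333 to 468 and 4069 to 5693 CPM). Within HPC7 only 4 of these granulocyte, 5 of these monocyte and macrophage and 2 of these mast cell markers passed the filter. Those that passed only through HPCLSK had to differ. Erythroid markers were lower in HPCLSK for 5 of 6 genes and higher for 1 (31.6 to 32.1 CPM in HPC7 and 1.74 to 2.9 in HPCLSK). Within HPCLSK 2 of those 6 passed the filter, so the same limit holds for them. The part of these markers in the differences below was not tested.

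Trp53 (ENSMUSG00000059552.13, chromosome 11, 69580359 to 69591873 on GRCm38) stood at 238, 262 and 231 CPM in the HPC7 empty vector libraries and 225, 231 and 231 in HPCLSK. The libraries of the lines overlapped (log2 difference, HPCLSK minus HPC7, −0.09 ± 0.06, adjusted p = 0.16). Mdm2 (ENSMUSG00000020184.15, chromosome 10, 117688875 to 117710758), inhibitor and target at once, stood at 91.3, 95.4 and 89.7 CPM in HPC7 and 91.6, 82.2 and 78.7 in HPCLSK (−0.13 ± 0.06, adjusted p = 0.065). Its libraries overlapped as well, and without both HPCLSK libraries that stand apart the difference was −0.22 (adjusted p = 0.00019), which passed the adjusted p but not the fold minimum. Mdm4 differed by 0.47 ± 0.07, adjusted p = 3.1e-06, and Ppm1d, a phosphatase that switches the pathway off, by −0.35 ± 0.05, adjusted p = 3.1e-06, both under the fold minimum.

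The largest difference was in Perp (ENSMUSG00000019851.8, chromosome 10, 18845020 to 18857073), a membrane protein gene of p53-dependent apoptosis. It had 236, 187 and 199 CPM in HPCLSK and 0 counts in all 3 HPC7 libraries, where a count of 0 allows a level of up to 0.0879 to 0.13 CPM in 1 library. That is at least 5664-fold higher in HPCLSK, set against a floor of 3 counts over the HPC7 group. Fas (ENSMUSG00000024778.12, chromosome 19, 34290659 to 34327770), a death receptor, had 2.9, 3.57 and 4.11 CPM against 0 counts, at least 99.6-fold higher. Both bounds cover counting error only.

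Zmat3, Trp53inp1 and Phlda3 were low but present in HPC7. Zmat3 (ENSMUSG00000027663.12, chromosome 3, 32334792 to 32366014), an RNA-binding protein of the p53 response, stood at 1.7, 1.2 and 1.14 CPM there and 85.9, 85.9 and 90.1 in HPCLSK (6.03 ± 0.14, adjusted p = 1.5e-17). The median difference over all tested genes of chromosome 3, where Zmat3 lies, was 0.92. Trp53inp1 (ENSMUSG00000028211.11, chromosome 4, 11156431 to 11174379), a nuclear protein that links p53 to apoptosis and autophagy, stood at 3.32, 2.91 and 2.83 against 122, 116 and 135 CPM (5.37 ± 0.10, adjusted p = 4.3e-19). Phlda3 (ENSMUSG00000041801.5, chromosome 1, 135766119 to 135769136), an inhibitor of AKT, stood at 0.463, 0.257 and 0.408 against 18.9, 21.1 and 20.3 CPM (5.70 ± 0.17, adjusted p = 4.4e-16). No library of 1 line reached the level of the other for these 3 genes. Phlda3 passed the filter only through HPCLSK and so had to differ, and its p-value is no support.

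Smaller differences were called for 4 further members. Btg2 (ENSMUSG00000020423.6, chromosome 1, 134075170 to 134079120), an antiproliferative gene, stood at 2.39, 1.5 and 1.25 CPM in HPC7 and 18, 14.7 and 13.6 in HPCLSK (3.18 ± 0.18, adjusted p = 7.2e-12). Ccng1 (ENSMUSG00000020326.7, chromosome 11, 40748552 to 40755311), cyclin G1, stood at 86, 74 and 79.2 and 265, 262 and 280.5 (1.75 ± 0.06, adjusted p = 3.5e-15). Cdkn1a (ENSMUSG00000023067.13, chromosome 17, 29090979 to 29100722), which encodes the cell-cycle inhibitor p21, stood at 39.3, 43.7 and 35 and 140.1, 86.8 and 95.2 (1.45 ± 0.13, adjusted p = 3.1e-09). The first HPCLSK library was the highest of its group and is 1 of the 2 that stand apart; without both, the Cdkn1a difference was 1.19 and still called. Xpc (ENSMUSG00000030094.8, chromosome 6, 91489305 to 91515888), a sensor of nucleotide excision repair, stood at 55.9, 57.9 and 56.4 and 138, 139.6 and 143 CPM (1.30 ± 0.05, adjusted p = 5e-15), with no overlap.

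Members that did not reach the call included other repair and metabolic targets. Ddb2, the partner of Xpc in damage recognition, differed by −0.84 ± 0.09, adjusted p = 3.5e-08, and Tigar, a regulator of glycolysis, by −0.95 ± 0.09, adjusted p = 1.3e-08, both lower in HPCLSK and short of the fold minimum. Sesn2 differed by 0.74 ± 0.16, adjusted p = 0.00025 and Tnfrsf10b, a TRAIL receptor, by −0.59 ± 0.21, adjusted p = 0.015. The remaining uncalled members (Sesn1, Aen, Ei24, Ercc5, Polk, Rrm2b, Plk3, Rps27l, Pidd1, Apaf1, Fdxr and Gtse1) ran from −0.30 to 0.56. Eda2r had 0 counts in the 9 HPC7 libraries and 1 over the HPCLSK empty vector group. Plk2 had 0 in HPC7 and 1, 8 and 8 counts over the HPCLSK empty vector, STAT3 and Y640F groups.

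**Figure D2:**
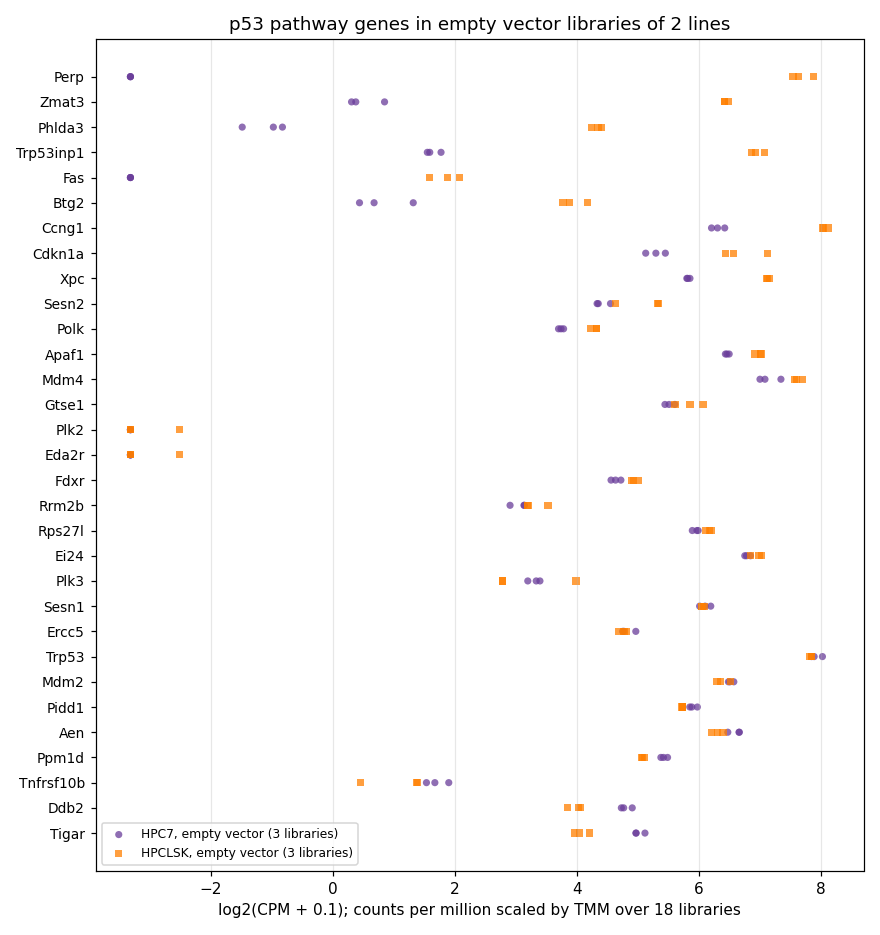
Each point is 1 empty vector library, placed by log2(CPM + 0.1), with members ordered by the difference between the lines. Perp, Zmat3, Phlda3, Trp53inp1 and Fas, at the top, show the widest gaps, while Trp53 and Mdm2 overlap.

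Levels of different members were compared per kilobase of exon. With empty vector in HPCLSK, Perp was highest at 106 CPM per kilobase, followed by Rps27l at 87.8, Ccng1 at 76.7 and Trp53 at 56.6. In HPC7 the order opened with Rps27l at 75.9 and Trp53 at 60.2, then Ei24 at 22.9 and Ccng1 at 22.7. Rps27l encodes a ribosomal protein paralogue close in sequence to Rps27, so reads may be divided unevenly between the 2 genes.

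In HPC7, STAT3 compared with empty vector changed few members by a fold of 2. Tigar rose, Btg2 and Tnfrsf10b fell, and 23 of the 26 tested members were not called. These shares stand against 1.81% of all genes called higher and 5.41% called lower. With the adjusted p alone, 7 members were higher and 12 lower, against 23.3% and 25.3% of all genes, and the members' median was −0.05 against 0.00. Granulocyte markers fell for 3 of 4 genes tested (summed 332 to 669.8 CPM with empty vector and 263 to 286 with STAT3), monocyte and macrophage markers for 2 of 5 (38.2 to 41.5 and 24 to 25.5 CPM) and stem and progenitor markers for 3 of 12 (3190 to 3388 and 2978 to 3041 CPM). Megakaryocyte markers rose for 2 of 5 (321 to 379 and 622 to 648 CPM). The part of these markers was not tested.

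Tigar (ENSMUSG00000038028.9, chromosome 6, 127085116 to 127109557) went from 31.3, 31.3 and 34.7 CPM with empty vector to 67.9, 67.7 and 67.9 with STAT3 (log2 fold change 1.06 ± 0.05, adjusted p = 2.1e-09). All STAT3 libraries lay above all others of the line. Tnfrsf10b (ENSMUSG00000022074.5, chromosome 14, 69767472 to 69784403) went from 3.09, 3.63 and 2.8 to 1.46, 1.29 and 1.61 CPM (−1.12 ± 0.15, adjusted p = 3.8e-05). Btg2 went to 0.731, 0.807 and 0.706 CPM (−1.17 ± 0.28, adjusted p = 0.0032) from the empty vector values given above, of which replicate 1 was the highest. Without that library its change was −0.84, short of the fold minimum, and chromosome 1, where it lies, had a median of −0.34; less that median the change was −0.82.

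Trp53 itself was lower with both constructs in HPC7, under the fold minimum. It stood at 183, 178 and 192 CPM with STAT3 (−0.40 ± 0.05, adjusted p = 1e-05) and 183, 191 and 183 with Y640F (−0.37 ± 0.05, adjusted p = 1.6e-05). Both groups lay below all 3 empty vector libraries, which they share as control. Mdm2 had 108, 109 and 106 CPM with STAT3 (0.23 ± 0.04, adjusted p = 0.00023) and 95.2, 96.6 and 95 with Y640F (0.07 ± 0.04, adjusted p = 0.12). Only the first passed the adjusted p.

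Y640F compared with empty vector in HPC7 raised Cdkn1a, Sesn2 and Zmat3 and lowered no member by a fold of 2. The 3 of 26 stand against 4.54% of all genes called higher, and the 0 against 3.64% called lower. With the adjusted p alone 9 members were higher and 11 lower, against 29.5% and 27.8% of all genes, with a median of −0.10 against 0.00.

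Cdkn1a stood at 92.2, 82.7 and 86 CPM with Y640F (1.17 ± 0.07, adjusted p = 1.3e-08) and 48.6, 52.1 and 49.2 with STAT3 (0.35 ± 0.07, adjusted p = 0.001), against the 39.3, 43.7 and 35 of empty vector. The 3 groups did not overlap, and STAT3 lay between the others. Sesn2 (ENSMUSG00000028893.8, chromosome 4, 132492032 to 132510501), a stress-induced brake on mTORC1, went from 20.3, 23.4 and 20.1 to 57.8, 52.2 and 52.2 CPM (1.37 ± 0.06, adjusted p = 1.7e-09). With STAT3 it stood at 25.9, 27.4 and 27.4 (0.34 ± 0.07, adjusted p = 0.00078), again between the other groups. Sesn2 is known to respond to amino-acid and endoplasmic reticulum stress as well as to p53. Zmat3 went to 3.34, 2.18 and 3.03 CPM (1.11 ± 0.22, adjusted p = 0.00075), below every HPCLSK library; without empty vector replicate 3 the change was 0.98, short of the fold minimum. Sesn1 and Mdm4 had negative changes with Y640F (−0.53 ± 0.05, adjusted p = 6.3e-07 and −0.54 ± 0.07, adjusted p = 3.1e-05) that missed it. Mdm4 lies on chromosome 1, where the median change over all tested genes was −0.34, and Sesn1 on chromosome 10, where it was −0.01. Phlda3, too low for the filter in HPC7, had 0.0655, 0.149 and 0.025 CPM with Y640F, 0.463, 0.257 and 0.408 with empty vector and 0.244, 0.188 and 0.202 with STAT3. It was called lower with Y640F against empty vector without the filter, in 1 fit of all 18 libraries, and without empty vector replicate 2 or any 1 Y640F library of the line. Erythroid markers rose with Y640F in HPC7 for 4 of 6 genes tested (summed 31.6 to 32.1 CPM with empty vector and 37.9 to 48.3 with Y640F), and granulocyte markers fell for 3 of 4 (332 to 669.8 and 127 to 148 CPM), and their part in these changes was not tested.

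Set against STAT3, Y640F in HPC7 had Zmat3 (1.95 ± 0.24, adjusted p = 1.3e-05), Tnfrsf10b (1.84 ± 0.14, adjusted p = 1.3e-07) and Sesn2 (1.02 ± 0.06, adjusted p = 1.7e-08) higher, 3 of 26 against 6.17% of all genes. Members called lower numbered 0, against 1.73% of all genes. With the adjusted p alone 7 members were higher and 8 lower, against 27.1% and 24.1% of all genes. Tnfrsf10b stood at 4.88, 5.11 and 5.33 CPM with Y640F, so its 3 groups ran in the order STAT3, empty vector, Y640F with no overlap. Sesn2 sat at the threshold and fell to 0.98 without Y640F replicate 1. Cdkn1a differed by 0.82 ± 0.07, adjusted p = 2.9e-07, Tigar by −0.56 ± 0.05, adjusted p = 4.2e-07, Trp53 by 0.03 ± 0.05, adjusted p = 0.59 and Mdm2 by −0.15 ± 0.04, adjusted p = 0.0036, none called. In this comparison erythroid markers were higher for 3 of 6 genes (summed 19.9 to 25.4 CPM with STAT3 and 37.9 to 48.3 with Y640F), and monocyte and macrophage markers for 2 of 5 (24 to 25.5 and 52.3 to 55 CPM). Megakaryocyte markers were lower for 2 of 5 (622 to 648 and 338 to 353 CPM). Their part in the differences was not tested.

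**Figure D3:**
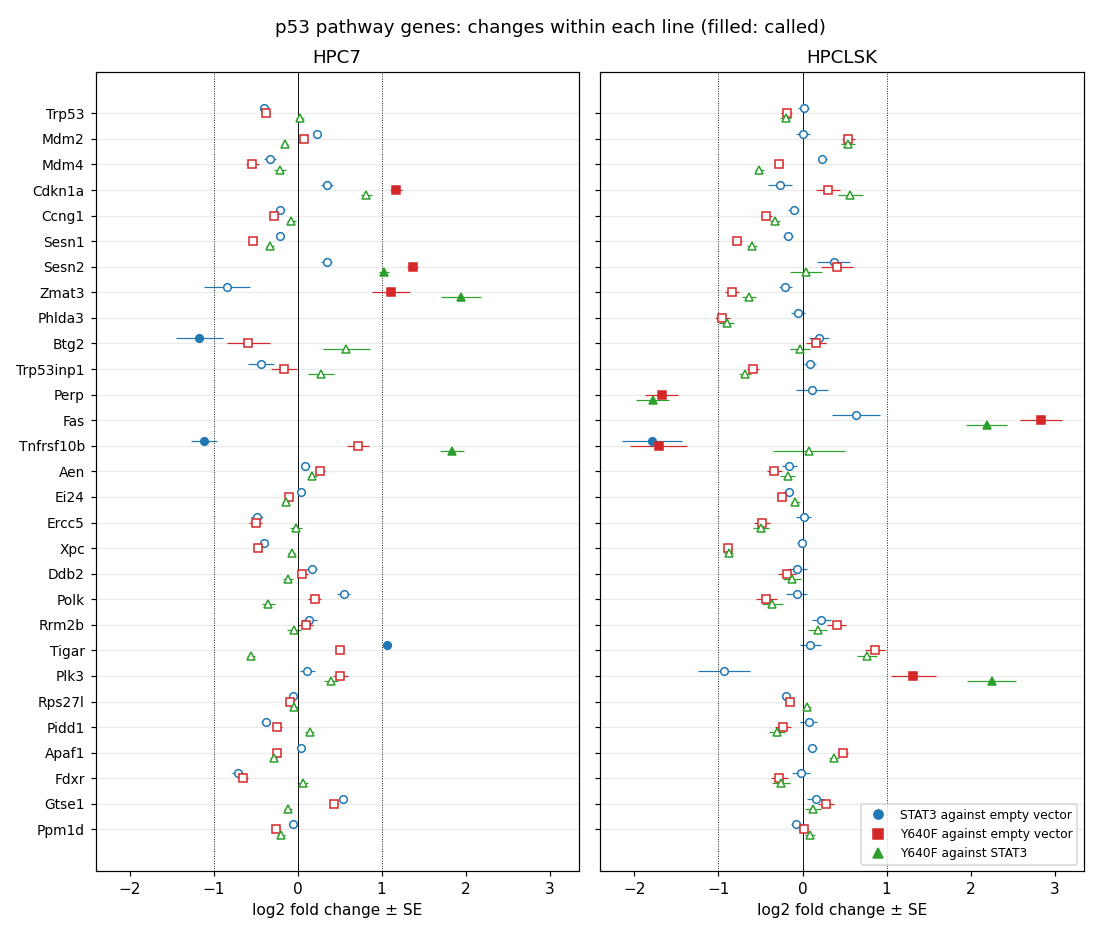
Log2 fold changes with standard errors for the tested members in HPC7 (left) and HPCLSK (right); filled markers were called, open markers were not, and dotted lines mark a fold of 2. Most members lie within the dotted lines, and the highest values are those of Fas with Y640F against empty vector and of Plk3 with Y640F against STAT3, both in HPCLSK.

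In HPCLSK, STAT3 compared with empty vector lowered Tnfrsf10b alone. The 1 of 29 members stands against 1.79% of all genes called lower, and 0 members were called higher, against 2.8%; with the adjusted p alone 1 was higher and 2 lower, against 7.7% and 6.37%. Without empty vector replicate 2, Plk3 was called lower too. Granulocyte markers rose for 8 of 11 genes (summed 7959 to 12550 CPM with empty vector and 14550 to 22130 with STAT3), and their part was not tested. Tnfrsf10b went from 2.53, 2.5 and 1.27 to 0.57, 0.666 and 0.516 CPM (−1.79 ± 0.36, adjusted p = 0.0072). Its counts were low, 112 over the empty vector group and 26 over the STAT3 group. Trp53 (221, 237 and 232 CPM; 0.01 ± 0.06, adjusted p = 0.93) and Mdm2 (84.1, 82.9 and 84.9 CPM; 0.00 ± 0.08, adjusted p = 0.99) had changes near 0. Cdkn1a stood at 85.7, 93.4 and 85.8 CPM (−0.27 ± 0.15, adjusted p = 0.27), and without both libraries that stand apart its change was −0.03. Perp (215, 213 and 239.6 CPM; 0.11 ± 0.19, adjusted p = 0.76) and Fas (4.8, 6.66 and 4.65 CPM; 0.64 ± 0.28, adjusted p = 0.17) were not called.

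With Y640F against empty vector in HPCLSK, Fas and Plk3 rose and Perp and Tnfrsf10b fell. Several of the targets that were near absent in HPC7 had smaller negative changes. Called members were 2 higher and 2 lower of 29 (6.9% each), against 9.62% and 6.57% of all genes, so movement in both directions is not particular to the members. With the adjusted p alone, 7 were higher and 16 lower, against 30.6% and 28% of all genes, and the members' median was −0.23 against −0.01.

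Fas stood at 35.2, 21.1 and 19.6 CPM with Y640F (2.83 ± 0.25, adjusted p = 5.5e-06 against empty vector; 2.19 ± 0.24, adjusted p = 3.6e-05 against STAT3). All 3 libraries lay above all others, and the first, which stands apart, was the highest. Without both libraries that stand apart the changes were 2.40 and 1.85. Plk3 (ENSMUSG00000028680.14, chromosome 4, 117128655 to 117133963), a stress-response kinase, had 26.3, 20.5 and 23.8 CPM with Y640F, 15.8, 6.78 and 6.76 with empty vector and 4.88, 4.8 and 5.26 with STAT3. The first empty vector library was above its 2 partners. The change with Y640F was 1.32 ± 0.27, adjusted p = 0.0016 against empty vector (1.70 without both libraries that stand apart) and 2.25 ± 0.29, adjusted p = 0.00011 against STAT3.

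Perp, at 40.3, 71.9 and 80.3 CPM with Y640F, was below every empty vector and STAT3 library (−1.67 ± 0.20, adjusted p = 3.9e-05 and −1.78 ± 0.20, adjusted p = 3.7e-05). The lowest of the 3 was again the library that stands apart; without both such libraries the changes were −1.35 and −1.56. Tnfrsf10b stood at 0.809, 0.392 and 0.685 CPM (−1.71 ± 0.34, adjusted p = 0.0014), overlapping the STAT3 libraries (0.08 ± 0.43, adjusted p = 0.89).

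**Figure D4:**
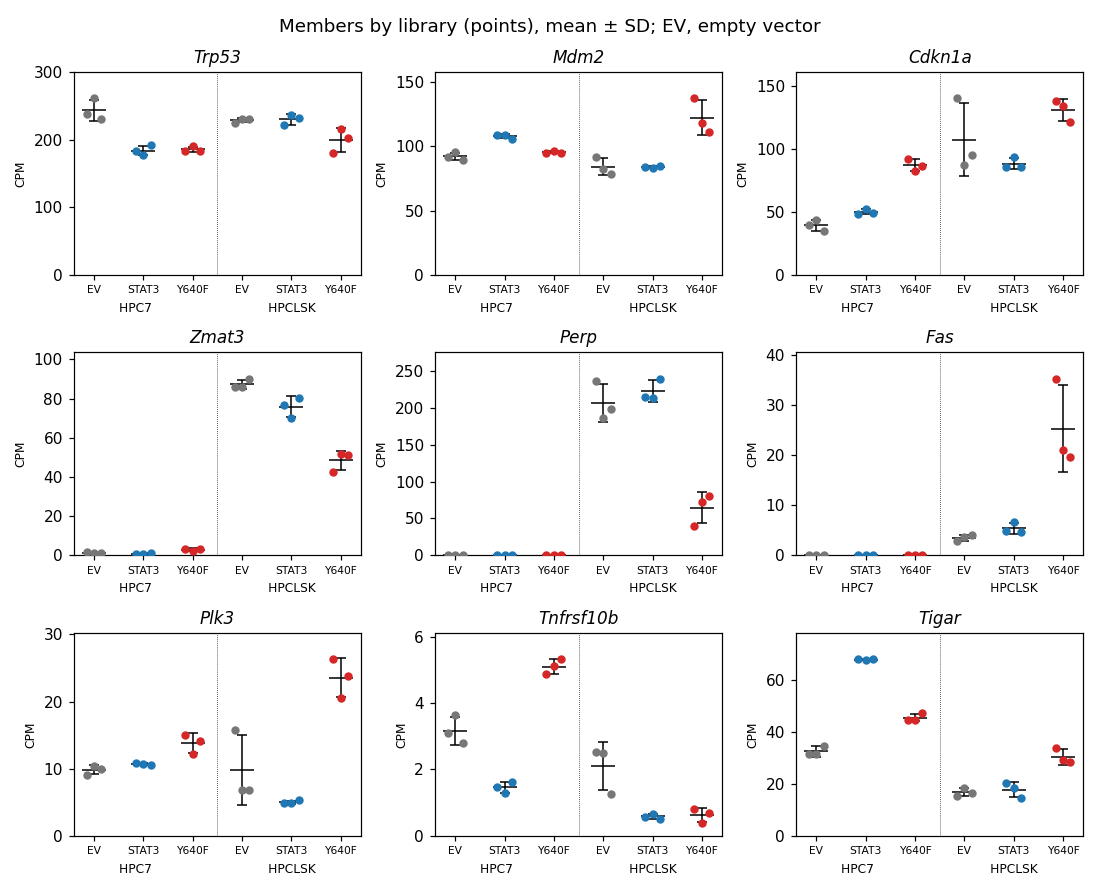
CPM in every library for 9 members, with the mean and standard deviation of each group, HPC7 on the left and HPCLSK on the right of each panel. Perp and Fas are at or near 0 in HPC7, and with Y640F in HPCLSK Perp is lower and Fas and Plk3 are higher than with empty vector.

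The regulators changed by less in HPCLSK. Mdm2 stood at 137, 118 and 111 CPM with Y640F, above all 6 other libraries of the line (0.55 ± 0.08, adjusted p = 0.00018). Trp53 stood at 181, 216 and 202 (−0.19 ± 0.06, adjusted p = 0.022), below all of them. Mdm4 had a change of −0.28 ± 0.05, adjusted p = 0.00097. Cdkn1a stood at 138, 134 and 121 CPM and overlapped empty vector through replicate 1 of that group (0.30 ± 0.14, adjusted p = 0.096); without both libraries that stand apart the change was 0.47 (adjusted p = 8.3e-05). Against STAT3 the Cdkn1a difference was 0.57 ± 0.15, adjusted p = 0.0074, that of Mdm2 0.54 ± 0.08, adjusted p = 0.00026 and that of Trp53 −0.20 ± 0.06, adjusted p = 0.018.

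Of the 9 members called higher in HPCLSK than in HPC7, 6 had negative changes with Y640F against STAT3 in HPCLSK that passed the adjusted p. These are Perp, Phlda3 (−0.90 ± 0.09, adjusted p = 1.8e-05), Xpc (−0.88 ± 0.05, adjusted p = 7.9e-07), Trp53inp1 (−0.68 ± 0.07, adjusted p = 2.8e-05), Zmat3 (−0.64 ± 0.08, adjusted p = 7.6e-05) and Ccng1 (−0.33 ± 0.06, adjusted p = 0.0014). Fas and Cdkn1a had positive ones, and Btg2 was at −0.03 ± 0.12, adjusted p = 0.83. With the adjusted p alone, 25.2% of all genes were lower in this comparison. Phlda3 stood at 18.5, 18.8 and 20.9 CPM with STAT3 and 9.57, 10.7 and 10.6 with Y640F, Xpc at 138, 135 and 143 and 70.1, 79.4 and 76.2, and Trp53inp1 at 131, 122 and 144 and 84.6, 82.4 and 79.6. None of these reached a fold of 2 apart from Perp, and in none did the groups overlap. The share of all genes without overlap was not counted, so nothing is read from that. The 9 were picked by their values, so the count of 6 is a description. Empty vector groups were compared between the lines and other groups here, but both fits used all 9 HPCLSK libraries for filter, scaling and spread. The 2 results are therefore not independent.

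Over all 29 members, Fas and Plk3 (2 members) were called higher and Perp (1 member) lower in that comparison, against 8.11% and 6.09% of all genes. Among other members with negative changes against empty vector were Sesn1 (−0.78 ± 0.06, adjusted p = 1.9e-06), Ercc5 (−0.48 ± 0.09, adjusted p = 0.00098), an endonuclease of excision repair, and Polk (−0.43 ± 0.12, adjusted p = 0.011), a translesion polymerase. Positive ones included Tigar (0.86 ± 0.12, adjusted p = 0.00013), Apaf1 (0.49 ± 0.06, adjusted p = 5.4e-05), the apoptosome scaffold, and Rrm2b (0.41 ± 0.11, adjusted p = 0.01), a ribonucleotide reductase subunit; none of these 6 was called. Monocyte and macrophage markers moved with Y640F against empty vector: 4 of 7 tested rose and 0 fell, with the 9 listed summing to 1028 to 1248 CPM with empty vector and 6256 to 9184 with Y640F, and with C1qa at 0 in the first and C1qb in the second group. Megakaryocyte markers fell for 4 of 5 genes and rose for 1 (1185 to 1688 and 491 to 727 CPM). Mast cell markers fell for 2 of 5 (4069 to 5693 and 1011 to 1463 CPM), granulocyte markers rose for 4 of 11 and fell for 3 (7959 to 12550 and 14330 to 18820 CPM), and stem and progenitor markers rose for 2 of 12 and fell for 3 (4572 to 4963 and 3009 to 3214 CPM). The part of these markers in the changes of the p53 genes was not tested, and in bulk RNA fewer cells of a type and less RNA per cell cannot be told apart.

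The line difference of a response is the log2 fold change in HPCLSK minus that in HPC7. Fas had 0 counts in every HPC7 library and Perp 1 count over all 9, so their line differences cannot be measured, though both are among the 29 tested. For STAT3 against empty vector, Btg2 (1.36 ± 0.29, adjusted p = 0.0015) was called higher and Plk3 (−1.05 ± 0.32, adjusted p = 0.018) lower, 1 of 29 each, against 6.16% and 2.09% of all genes. The Plk3 difference rested on HPCLSK empty vector replicate 1: without it the value was −0.57. Plk3 was also not called less the chromosome median (−0.95), without HPC7 empty vector replicate 1 (−0.99) or without HPCLSK STAT3 replicate 2 (−1.01). Tigar (−0.98 ± 0.13, adjusted p = 1.1e-05) was short of the fold minimum. It was called lower without a filter, less the chromosome median, without both libraries that stand apart, and without HPC7 empty vector replicate 3, HPCLSK empty vector replicate 1 or HPCLSK STAT3 replicate 1 or 2. In HPC7 Plk3 stood at 9.07, 10.4 and 9.99 CPM in the empty vector libraries, 10.8, 10.7 and 10.5 in those with STAT3 and 15.1, 12.2 and 14.1 in those with Y640F. Btg2 in HPCLSK stood at 20.1, 16.9 and 15.5 CPM with STAT3 and 17, 16.9 and 17.3 with Y640F, overlapping empty vector, while in HPC7 it was under 3 CPM in every library. Less the chromosome median the Btg2 difference was 0.93 and no longer called. For Trp53 the difference was 0.41 ± 0.08, adjusted p = 0.00066, for Mdm2 −0.23 ± 0.09, adjusted p = 0.065 and for Cdkn1a −0.62 ± 0.18, adjusted p = 0.011. Without HPCLSK empty vector replicate 1 that of Cdkn1a was −0.39 (adjusted p = 0.012).

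For Y640F against empty vector, Phlda3 (1.27 ± 0.42, adjusted p = 0.026) was called higher and Tnfrsf10b (−2.42 ± 0.34, adjusted p = 8.2e-06) and Zmat3 (−1.94 ± 0.21, adjusted p = 5.6e-07) lower, 1 and 2 of 29, against 7.74% and 7.25% of all genes. Phlda3 rests on 32 and 8 counts over the HPC7 groups, and it was not called without HPC7 empty vector replicate 1 or 3 or without Y640F replicate 1 or 3 of that line, at 0.79 to 1.20. It was also not called less the chromosome median (0.94) or without a filter (1.22, adjusted p = 0.065). Without HPCLSK empty vector replicate 1, Plk3 was called higher as well. Sesn2 (−0.95 ± 0.21, adjusted p = 0.001) passed the adjusted p but not the fold minimum. It was called lower without that library, without both that stand apart, without HPC7 empty vector replicate 2 or HPCLSK Y640F replicate 1, without a filter and less the chromosome median. Zmat3 in HPCLSK stood at 76.7, 69.9 and 80.5 CPM with STAT3 and 42.7, 51.5 and 51.1 with Y640F, so it was lower with Y640F there and higher with Y640F in HPC7. The differences were −0.85 ± 0.17, adjusted p = 0.00041 for Cdkn1a, 0.48 ± 0.09, adjusted p = 0.00018 for Mdm2 and 0.19 ± 0.08, adjusted p = 0.059 for Trp53. For Y640F against STAT3, Plk3 (1.88 ± 0.30, adjusted p = 5.9e-05) and Tigar (1.33 ± 0.12, adjusted p = 9.6e-08) were called higher and Zmat3 (−2.57 ± 0.23, adjusted p = 6.1e-08) and Tnfrsf10b (−1.74 ± 0.43, adjusted p = 0.0028) lower, 2 and 2 of 29, against 4.48% and 8.0%. Tigar in HPCLSK stood at 33.7, 29.1 and 28.2 CPM with Y640F, 20.1, 18.5 and 14.4 with STAT3 and 15.5, 18.3 and 16.4 with empty vector, and in HPC7 at 44.7, 44.5 and 47.2 with Y640F, so STAT3 gave its highest group in HPC7 and Y640F in HPCLSK. For Y640F against STAT3, Mdm2 differed by 0.71 ± 0.09, adjusted p = 3.7e-06, Trp53 by −0.22 ± 0.08, adjusted p = 0.034 and Cdkn1a by −0.23 ± 0.17, adjusted p = 0.29. Stat3 RNA ranked differently by vector in the lines, so line and level of Stat3 RNA cannot be told apart in these differences.

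Among 24 activators and regulators of p53, 22 were tested, and Cdkn2a was the only 1 called in any of the comparisons above. Cdkn2a encodes ARF, which blocks MDM2, and the kinase inhibitor p16, and gene counts do not separate the products. It stood at 107, 110.5 and 107 CPM with empty vector in HPC7 and 0, 0.134 and 0.0578 in HPCLSK (−10.39 ± 0.14, adjusted p = 6.3e-21). The HPCLSK group held only 4 counts, so the standard error given is too small. Of the 22, 1 was thus called lower in HPCLSK and 0 higher, against 13.6% and 22.8% of all genes. The order is thus the reverse of that of Perp or Zmat3. In HPC7 it stood at 279, 274 and 273 CPM with STAT3 (1.35 ± 0.04, adjusted p = 4.6e-11; 1 of 22 higher, against 1.81% of all genes) and 171, 159 and 154 with Y640F (0.60 ± 0.04, adjusted p = 5.4e-08). In HPCLSK it had 4, 11 and 41 counts over the 3 groups, and the rise with Y640F (3.32 ± 0.52, adjusted p = 0.0003; 1 of 22, against 9.62%) stayed under 1 CPM on average, at 0.816 ± 0.181 (SD, n = 3). The damage kinase gene Atm had a change of −0.50 ± 0.10, adjusted p = 0.0013 with Y640F in HPCLSK and −0.57 ± 0.06, adjusted p = 3.3e-06 in HPC7.

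Other known p53 targets, 25 genes outside the 31, were compared between the lines with empty vector. Of 23 tested, 12 were called higher in HPCLSK and 4 lower, against 22.8% and 13.6% of all genes, but only 15 of the 25 passed the filter within HPC7 and 20 within HPCLSK. Those that passed through 1 line had to differ, so nothing is read from this count. The apoptosis gene Pmaip1 had 87.3, 74.1 and 76.4 CPM in HPCLSK and 0 counts in HPC7, at least 2179-fold higher. Casp1, which encodes caspase-1, had 0 counts in HPC7 and was at least 1190-fold higher, and Trp53i11, also at 0, at least 573-fold. Psrc1, a spindle protein gene, had 118, 121 and 134 against 0, 0.0855 and 0.0583 CPM. The death effectors Bax (44.2, 48.8 and 46.2 against 79.1, 87 and 87.5 CPM; 0.87 ± 0.06, adjusted p = 2.7e-10) and Bbc3 (6.91, 7.01 and 6.47 against 28, 26.6 and 27.1; 2.00 ± 0.07, adjusted p = 5.9e-15) were present in both lines. Epha2, a receptor kinase gene, went the other way (−4.58 ± 0.34, adjusted p = 1.3e-09).

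Within the lines, the other targets moved in both directions. In HPC7 with Y640F, Epha2 rose (2.34 ± 0.12, adjusted p = 3.3e-09) and Gadd45a fell (adjusted p = 0.00011). Called genes were 1 higher and 2 lower of 15, against 4.54% and 3.64% of all genes. With STAT3 in that line Epha2 rose (1.22 ± 0.13, adjusted p = 3.3e-06) and Gadd45a fell (−2.28 ± 0.54, adjusted p = 0.0033), 1 of 15 each, against 1.81% and 5.41%. Gadd45a, a growth arrest gene, had 65 counts over the HPC7 empty vector group and 2 with Y640F, a ratio of 40.4 with a 95% counting interval (exact binomial) from 10.8 to 341. In HPCLSK with Y640F, Pltp (3.24 ± 0.48, adjusted p = 0.00019) and Dram1 (2.76 ± 0.22, adjusted p = 2.6e-06), an autophagy gene, rose and Trp53i11 (−2.29 ± 0.24, adjusted p = 2e-05) fell, 2 and 1 of 20, against 9.62% and 6.57% of all genes. Dram1 stood at 9.59, 16.8 and 14.4 CPM with empty vector and 115, 88 and 76.5 with Y640F, with no overlap. Psrc1 had 53.9, 68.9 and 63 CPM there (−0.99 ± 0.08, adjusted p = 3.9e-06), under the fold minimum.

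**Figure D5:**
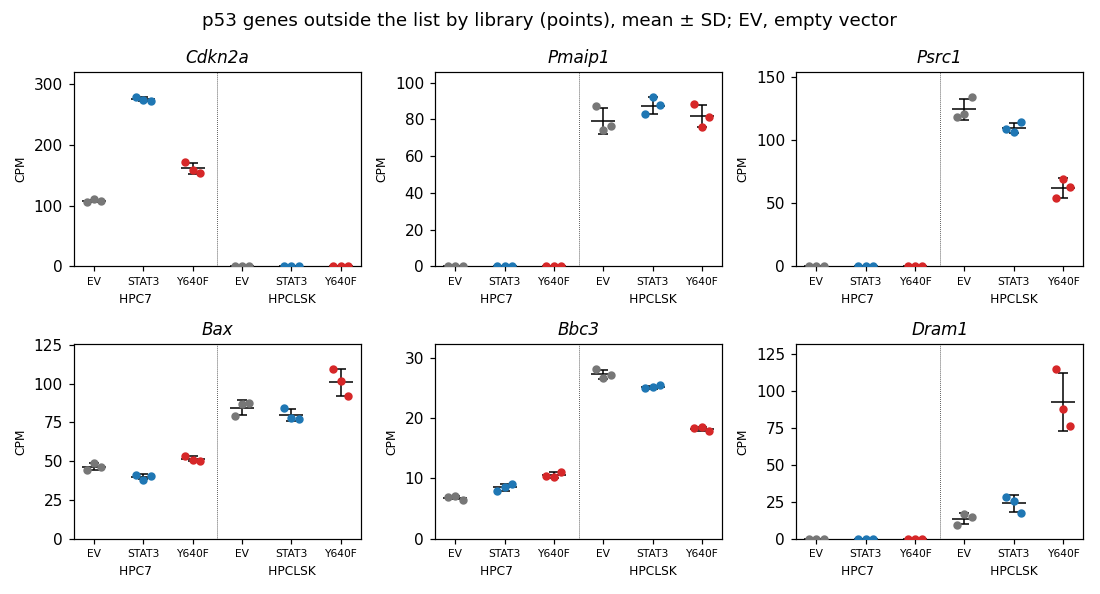
CPM in every library for Cdkn2a and 5 p53 targets outside the 31, with the mean and standard deviation of each group. Cdkn2a is high in HPC7 and near 0 in HPCLSK, while Pmaip1, Psrc1 and Dram1 are at or near 0 in HPC7.

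Cell-cycle genes that are known to fall when p21 is active were also counted. All 33 were tested in both lines. In HPC7, where Cdkn1a rose with Y640F, edgeR's quasi-likelihood test called 0 of the 33 with Y640F, against 4.54% of all genes higher and 3.64% lower. By the adjusted p alone, 12 were higher and 13 lower, against 29.5% and 27.8%. In HPCLSK with Y640F, 3 were called higher (Ccne1, 1.28 ± 0.09, adjusted p = 1.3e-06; Rrm2, 1.20 ± 0.06, adjusted p = 1.6e-07; Aurka, 1.01 ± 0.09, adjusted p = 4.7e-06) and 0 lower, against 9.62% and 6.57% of all genes. With the adjusted p alone 25 were higher and 2 lower, against 30.6% and 28% of all genes, with a median of 0.39 against −0.01. Between the lines with empty vector, 2 were called lower in HPCLSK (Ccne1, −1.62 ± 0.08, adjusted p = 3.6e-13, and Prc1, −1.43 ± 0.07, adjusted p = 3.8e-13) and 0 higher, against 13.6% and 22.8% of all genes. By the adjusted p alone 25 were lower and 4 higher, against 39.0% and 41.6% of all genes, with a median of −0.34 against 0.04. The part of Cdkn1a in these counts was not tested.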

How the data were processed

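Single-end 50 bp mRNA libraries were analysed. Per the file headers, the authors made the deposited counts with featureCounts 1.5.1 (strand setting 2, exons summed per gene, GENCODE M13) from STAR alignments, and per the submitters' processing notes reads were trimmed with Trimmomatic and the build was GRCm38 (mm10). The counts are raw whole numbers, 1 file per library. The 12 chromatin samples were not analysed here. The values of 1 gene of the other p53 targets are not reported here. A symbol was found by its ID for 50376 of 50686 genes. The labels name 2 library kits.

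Comparisons used edgeR 4.0.16 under R 4.3.3: filterByExpr, TMM, the quasi-likelihood test, and Benjamini-Hochberg adjustment over all genes tested (12683 in HPC7, 12552 in HPCLSK, 13891 over both lines). Comparisons within a line used its 9 libraries, others all 18. The script was tested on simulated data. Log2 fold changes are given ± standard error, taken as the change divided by the square root of the test's F statistic. This understates the uncertainty where a group has few counts, as for Cdkn2a in HPCLSK and Phlda3 in HPC7. Intervals and floors (3 counts) cover counting error only.

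The members, lists and rules were chosen with earlier results of these data known. Trp53, Mdm2 and Cdkn1a are described in every comparison, other members in full where called, and up to 3 called genes of other lists; Bax, Bbc3, Atm, Psrc1, the level of Dram1 and the line difference of Epha2, the motifs and the printed promoters were added after values were seen. Alternatives were RLE size factors, DESeq2 1.42.0, other filters, no fold minimum, a replicate block, subtraction of chromosome medians, 1 fit of 18 libraries, and leaving libraries out.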

Additional observations from a re-analysis of the deposited data

Results flagged for a closer look

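The responses of 6 members differed between the lines by a test of the difference itself (edgeR's quasi-likelihood test on all 18 libraries; log2 fold change in HPCLSK minus that in HPC7). For STAT3 against empty vector these were Btg2 (1.36, adjusted p = 0.0015) and Plk3 (−1.05, adjusted p = 0.018). For Y640F against empty vector they were Phlda3 (1.27, adjusted p = 0.026), Zmat3 (−1.94, adjusted p = 5.6e-07) and Tnfrsf10b (−2.42, adjusted p = 8.2e-06). For Y640F against STAT3 they were Zmat3 (−2.57, adjusted p = 6.1e-08), Plk3 (1.88, adjusted p = 5.9e-05), Tigar (1.33, adjusted p = 9.6e-08) and Tnfrsf10b (−1.74, adjusted p = 0.0028). In the same order, 1 and 1, 1 and 2, and 2 and 2 of 29 members were called higher and lower. The shares of all genes were 6.16% and 2.09%, 7.74% and 7.25%, and 4.48% and 8.0%. Plk3 for STAT3 was at −0.57 without HPCLSK empty vector replicate 1. Less the chromosome median, Btg2 (0.93) and Phlda3 (0.94) were not called, nor was Phlda3 without a filter. In HPC7 Zmat3, Phlda3 and Btg2 stood at 3.34 CPM or less in every library. With 3 libraries per group, no rule was applied to flag single values of a gene far from the rest. Whole libraries were compared with their group and left out 1 at a time.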

How the results depend on the processing

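The 9 members called higher in HPCLSK than in HPC7 with empty vector stayed 9 in number with RLE size factors, DESeq2, other filters, without both HPCLSK libraries that stand apart and without any 1 library. Without the fold minimum, members called higher and lower numbered 7 and 12 (STAT3 against empty vector), 9 and 11 (Y640F against empty vector) and 7 and 8 (Y640F against STAT3) in HPC7, 1 and 2, 7 and 16, and 6 and 12 in HPCLSK, 18 and 6 between the lines, and 8 and 6, 9 and 9, and 5 and 12 for the line differences in the same order. For the line differences the shares of all genes were 16.5% and 13.9%, 25.8% and 22.9%, and 23.2% and 22.1%. For Y640F against STAT3 in HPCLSK they were 28.6% and 25.2%. Less the chromosome median, 1 member was lower with STAT3 in HPC7, 1 was lower in HPCLSK between the lines, 0 were higher in the line differences of the STAT3 and Y640F responses, and 4 were lower in that of Y640F against STAT3. Without a filter, 1 was lower with Y640F in HPC7, and for the line differences 2 were lower for STAT3 and 0 higher for Y640F. With at least 5 CPM in 3 libraries, 1 was lower with STAT3 in HPC7, and 0 with STAT3 and 1 with Y640F were lower in HPCLSK. In 1 fit of 18 libraries, 1 was lower with Y640F in HPC7 against empty vector and 1 against STAT3. Without both libraries that stand apart, 2 were higher and 3 lower (Sesn2, Zmat3 and Tnfrsf10b) in the line difference of the Y640F response, and the same 3 were lower in that of Y640F against STAT3.

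Leaving out 1 library gave, in HPC7, 1 to 3 lower with STAT3 (with Zmat3 when STAT3 replicate 3 is out), 0 to 1 lower with Y640F and 0 to 1 lower for Y640F against STAT3; in HPCLSK 1 to 2 lower with STAT3; between the lines 0 to 1 lower (Tigar, without HPCLSK empty vector replicate 2); and for the line differences 0 to 2 lower for STAT3 and 0 to 2 higher for Y640F (0 without HPC7 empty vector or Y640F replicate 1 or 3). HPCLSK values near 0 with STAT3 changed sign: Mdm2 was at −0.0087 without a filter and −0.0025 in 1 fit of 18 libraries, and from -0.0441 to 0.0637 without 1 library, and Trp53 at −4e-04 without both libraries that stand apart and from -0.0116 to 0.0416 without 1 library. Single genes were followed for Trp53, Mdm2, Cdkn1a and, in each comparison, the members that its main fit called. Of 991 such alternatives, 949 kept direction and call, and a gene that stayed uncalled counts as kept. Members called only under an alternative are not among the 991, so the 949 does not measure the stability of the whole list.

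Same-numbered libraries did not deviate together (correlations from −0.191 to 0.097), so the numbers were not taken as pairs. With the replicate block, 0 members were lower in the line difference of the STAT3 response (Plk3 at −0.998), and the other counts were as without it; the block could not be fitted for the lines with empty vector. Totals limit what low genes can show: 3 counts correspond to 0.0778 to 0.315 CPM.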
